A study of Mus musculus with 8 samples.

Results

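Matrix metalloproteinases (MMPs) and their tissue inhibitors (TIMPs) were measured in bone marrow-derived macrophages, cultured phagocytes that differentiate from precursor cells of the marrow. The set comprised 6 MMP genes (Mmp2, Mmp12, Mmp13, Mmp14, Mmp19 and Mmp27) and 3 TIMP genes (Timp1, Timp2 and Timp3), taken by gene name from the array's non-control probes. They had 12 probes in all, and all 9 genes were among the 19259 genes that passed the filter on dim probes. The cells came from male C57BL/6J mice and were transfected either with siRNAs against the Y RNA terminal loop (4 arrays, called Y RNA siRNA) or with a control siRNA (4 arrays). The series design puts both conditions on 4 mice, and arrays of the same replicate number were read as 1 mouse, although no label names the mouse of a sample. Every value between mice rests on that reading. No untransfected culture was analysed here. The sources used here give neither the siRNA sequences and dose, nor the time after transfection, nor the age of the mice. The Y RNAs are small noncoding RNAs, and the series asked which genes respond to the small RNAs derived from them. The array carries 0 probes named for a Y RNA, so the knockdown itself was not checked.

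MMPs are zinc-dependent endopeptidases that cut collagens, elastin and other matrix proteins and also release or inactivate cytokines and chemokines. Most are secreted as inactive proenzymes, and TIMPs block the active site of the mature enzymes. Macrophages are a known source of the elastase Mmp12, of membrane-bound Mmp14 and of TIMPs, whereas Mmp2 and Timp3 are best known from fibroblasts and other stromal cells.

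The following coding probes are shown by the 60 bases they carry, placed on mouse build mm9, to show what the array read for the member that varied most between mice, for its opposite in pattern, and for the inhibitor whose 2 probes had opposite signs. The first reads Mmp12 on the plus strand (chr9:7352935-7352994), the second reads Mmp14 on the plus strand (chr14:55058775-55058834), and the third reads Timp2 on the minus strand. The coordinates of the Timp2 probe (chr11:118171964-118178741) span 6778 bases, so the probe joins sequence from more than 1 exon.
Mmp12: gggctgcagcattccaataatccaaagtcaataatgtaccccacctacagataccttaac
Mmp14: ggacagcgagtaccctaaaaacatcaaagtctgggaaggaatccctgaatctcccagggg
Timp2: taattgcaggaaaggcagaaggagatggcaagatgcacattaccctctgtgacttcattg

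Mmp13, Mmp12 and Mmp27 lie in the same region, and their 5 probes lay within 298626 bases of chromosome 9 (7282762 to 7581387, mm9). Promoter sequence from RefSeq (GRCm38.p6, 250 bases before to 50 after a start) was at hand for 7 of the 9 genes, in 8 windows. A classical element of MMP promoters is the binding motif of AP-1, the Fos and Jun factors, written TGAGTCA. On either strand it was in 1 window of Mmp12, beginning 44 bases before the start, and in the window of Mmp13, beginning 35 bases before it, where it reads TGACTCA. Of 32851 promoter windows of the same length, 5.20% held it. The Ets motif AGGAAG, which does not overlap these matches, was in 5 of the 8 windows on either strand, against 35.4% of all windows. The stretches around both AP-1 matches are shown because these neighbouring genes share the motif but differed in how far they varied between mice, as described below. They read the plus strand of GRCm38.p6 (chr9:7347270-7347371 for Mmp12 and chr9:7272419-7272513 for Mmp13), and the capitals mark the motif.
Mmp12: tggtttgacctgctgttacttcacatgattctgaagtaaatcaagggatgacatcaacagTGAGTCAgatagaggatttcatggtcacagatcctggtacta
Mmp13: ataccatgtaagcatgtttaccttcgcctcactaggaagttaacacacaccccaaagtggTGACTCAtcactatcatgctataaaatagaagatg

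On each array 48.7% to 50.7% of the spots were well above background, and 0 were saturated. The macrophage label was borne out by its markers, since 10 of 10 were well above background on all 8 arrays, with Cd68 at a mean log2 level of 8.77 with the Y RNA siRNA and 8.81 with the control siRNA. Each log2 level below is the log2 of a processed signal divided by its own array's 75th percentile, and levels are not comparable between probes or genes. In a principal component analysis the first component (43.0% of the variance) separated mouse 1 from the other mice on both of its arrays. Control replicate 4 had an RNA integrity number of 8, and the other 7 samples had 10. On the slide, columns 1 and 3 held the Y RNA siRNA arrays and columns 2 and 4 the others, so siRNA and column cannot be told apart.

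Transfection with the Y RNA siRNA left 0 of the 9 genes past the threshold of an adjusted p of 0.05, and the differences of most members were small. The log2 fold change (Y RNA siRNA minus control siRNA) was positive for 5 members and negative for 4, with a median of 0.01 over the members and 0.00455 over all genes. By limma, over all genes 0 of 19259 passed (0% called). With the mouse as a random block 0 members and 11 genes passed (0.0571%). At an unadjusted p under 0.05 there were 0 of 9 members and 654 genes (3.4%), and 0 members and 1783 genes (9.26%) when the fit compared the siRNAs within mice. The levels of the 2 siRNA groups overlapped for all 9 members, while over all genes the groups stood apart on the higher side for 1.34% and on the lower side for 1.09%. The plot of levels by siRNA shows the 8 arrays of each member with their mouse.

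**Figure D1:**
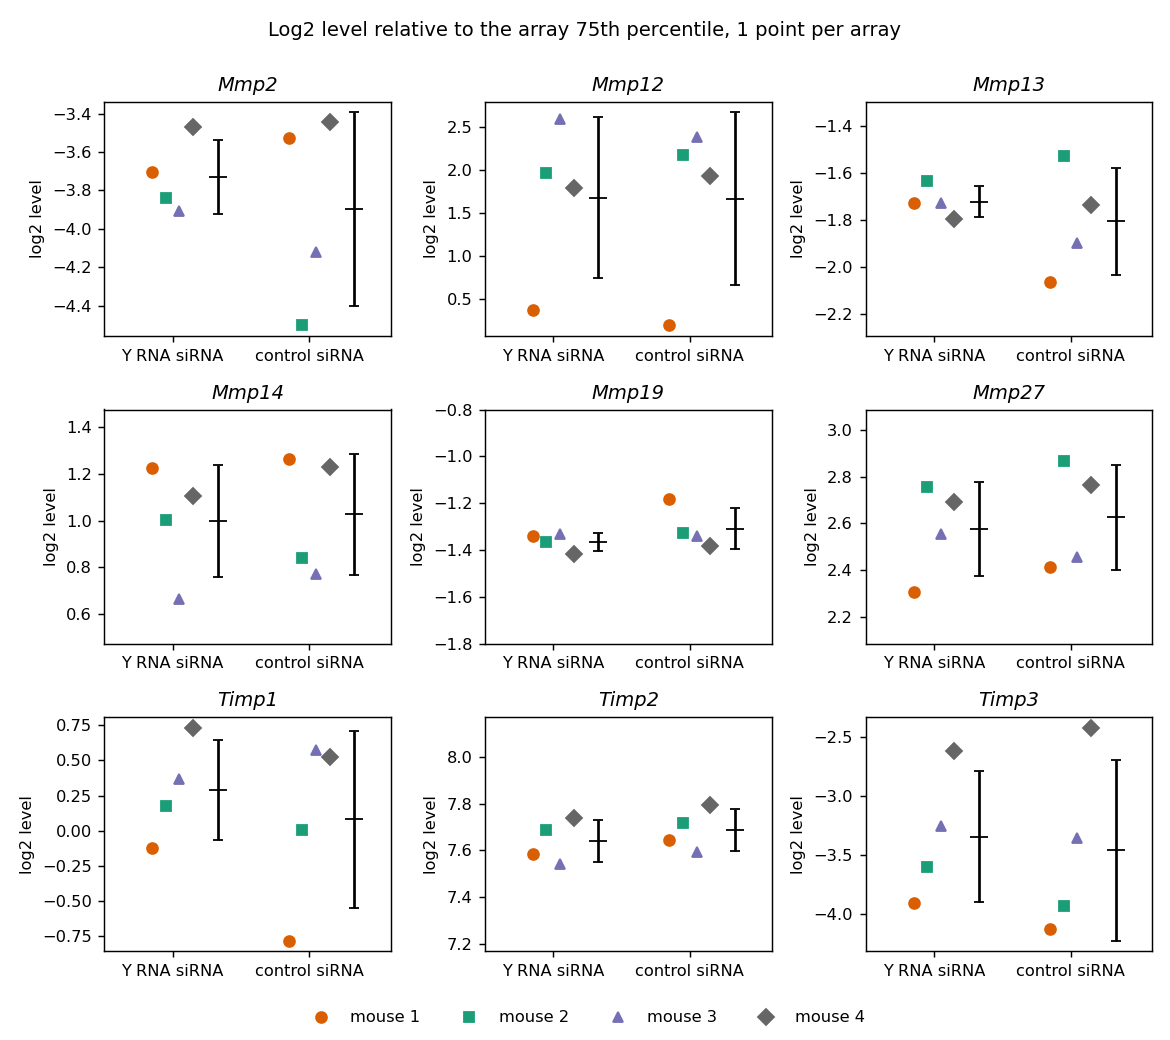
Log2 level relative to the array's 75th percentile (vertical axis, scaled per gene) of the 9 genes in the Y RNA siRNA and control siRNA cultures, with 1 point per array, a symbol per mouse, and the mean and SD (n = 4) as bars. The siRNA groups overlap for every gene, and Mmp12 is lowest in mouse 1 in both groups.

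Mmp12, the macrophage metalloelastase that degrades elastin, had the widest spread of the members. Its log2 levels were 0.37, 1.97, 2.59 and 1.79 in the Y RNA siRNA cultures of mice 1 to 4, against 0.20, 2.17, 2.38 and 1.93 in the control siRNA cultures. In both groups mouse 1 was the lowest and mouse 3 the highest, and the groups had nearly the same range. The means were 1.68 ± 0.94 with the Y RNA siRNA and 1.67 ± 1.00 with the control siRNA (SD, n = 4 each), and the log2 fold change was 0.01 ± 0.60 (SE, adjusted p = 1.000, 95% interval -1.36 to 1.38). Comparing the siRNAs within each mouse, with the mouse as a fixed block, narrowed the interval to -0.23 to 0.24 without a change of call (adjusted p = 0.986). Within mice the difference was 0.17, -0.21, 0.21 and -0.14 for mice 1 to 4.

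The Mmp12 values separated by mouse. In limma's moderated F-test of the 4 mice, with the siRNA as the other term, Mmp12 had an adjusted p of 0.00953. Over all genes 909 passed this test (4.72% called), and 2 of the 9 members did, Mmp12 and Timp3. At an unadjusted p under 0.05 there were 6 of 9 members and 29.7% of all genes. The mean over both arrays of a mouse was 2.49 in mouse 3, 2.07 in mouse 2, 1.86 in mouse 4 and 0.29 in mouse 1, so the highest mouse was 4.60-fold above the lowest. The range of these mouse means was wider for Mmp12 than for 99.5% of all genes. A second probe for Mmp12 (chr9:7360373-7360432) showed the same order of mice, with log2 levels of -3.14 and -2.93 in mouse 3 and -6.01 and -6.46 in mouse 1. That probe was not well above background on either array of mouse 1, and there the difference is a bound, at least 2.70-fold higher in mouse 3 than in mouse 1. Its own adjusted p between mice, over 26774 probes, was 0.0142. That p rests on the values below detection in mouse 1, and the probe passed the filter only through the other mice. It is not used as support. In RNA from whole cultures, fewer cells of a type and less RNA per cell cannot be told apart.

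The call for Mmp12 between mice rested on mouse 1. Without both of its arrays the adjusted p was 0.335, and only 2 genes of all those tested passed between the other 3 mice. It was also lost when either array of mouse 1 was left out alone (0.0781 without the Y RNA siRNA array, 0.0889 without the control array), and without the Y RNA siRNA array of mouse 3 (0.0535) or the control array of mouse 4 (0.0511). A mouse stands here for 1 culture per siRNA, and both arrays of mice 1 and 2 lay in row 1 of the slide and those of mice 3 and 4 in row 2. Animal, culture and place on the slide cannot be told apart for a single mouse. Mouse 2, in the same row as mouse 1, had a mean Mmp12 level of 2.07. An effect of the place on the slide was not tested.

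**Figure D2:**
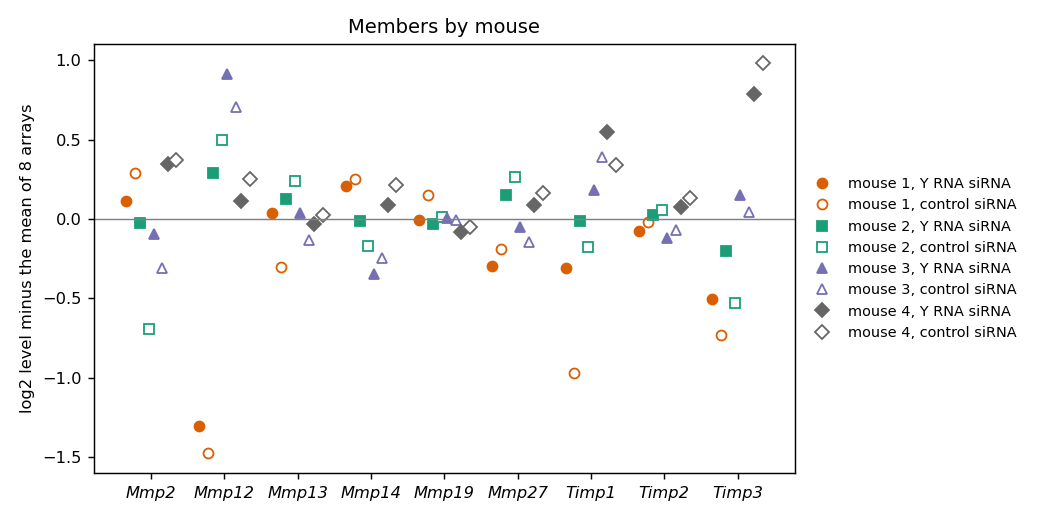
Log2 level minus the mean of the 8 arrays (vertical axis) for the 9 genes, with filled symbols for the Y RNA siRNA and open symbols for the control siRNA of the same mouse. Mmp12 is lowest on both arrays of mouse 1 and Timp3 is highest on both arrays of mouse 4, while Mmp19 and Timp2 stay close to 0.

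The other MMP genes varied less between mice. Mmp13, the main interstitial collagenase of rodents, had log2 levels of -1.73, -1.63, -1.73 and -1.80 in the Y RNA siRNA cultures of mice 1 to 4, against -2.06, -1.53, -1.90 and -1.74 in the control siRNA cultures. The control values spread further and enclose the others. Its log2 fold change was 0.08 ± 0.11 (SE), and its mouse means differed by at most 0.32 (adjusted p between mice = 0.346). Mmp27, a little studied MMP, had log2 levels of 2.31, 2.76, 2.55 and 2.69 with the Y RNA siRNA, against 2.41, 2.87, 2.46 and 2.76 with the control siRNA, on its brighter probe. On this probe mouse 2 was highest and mouse 1 lowest in both groups. Its mouse means differed by at most 0.45 (adjusted p between mice = 0.0720, but 0.0295 with normexp background correction and 0.0370 on the authors' deposited values). On the dimmer probe mouse 2 was again highest, at -2.48, but mouse 3 was lowest, at -3.02. The log2 fold changes between siRNAs were -0.05 on the brighter probe and -0.12 on the dimmer one. Both genes had smaller ranges between mice than Mmp12 (2.2), whose probes lie between theirs on chromosome 9. The difference in range was not itself tested.

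Mmp14 encodes a membrane-anchored collagenase that activates pro-Mmp2 at the cell surface with the help of Timp2. It was at 1.22, 1.00, 0.67 and 1.10 in the Y RNA siRNA cultures of mice 1 to 4, against 1.26, 0.84, 0.77 and 1.23 in the control siRNA cultures. Here mouse 1 was the highest and mouse 3 the lowest in both groups, the opposite of Mmp12 at both ends. The mouse means were 1.24 in mouse 1 and 0.72 in mouse 3, a 1.44-fold difference (adjusted p between mice = 0.0764). Mmp14 did not pass here, but it passed between mice with normexp background correction, with array weights and on the values of the authors' deposited table. Its log2 fold change between siRNAs was -0.03 ± 0.16 (SE).

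Mmp2, the gelatinase A that Mmp14 activates, was close to the detection limit, with processed signals of 40.3 to 52.6 on the Y RNA siRNA arrays and 28.4 to 54.2 on the control siRNA arrays, and control replicate 2 was not well above background. Its log2 levels were -3.70, -3.84, -3.91 and -3.47 with the Y RNA siRNA, against -3.52, -4.50, -4.12 and -3.44 with the control siRNA. Both groups were highest in mouse 4. The log2 fold change was 0.17 ± 0.24 (SE), and without control replicate 2 it was -0.03. The difference within mouse 2 alone was 0.66. Mmp19, a secreted MMP that cuts basement membrane proteins, was the steadiest of the MMP genes. It ranged from -1.42 to -1.33 with the Y RNA siRNA and from -1.38 to -1.18 with the control siRNA, and its SD over the 8 arrays was 0.07. Its log2 fold change was -0.06, with a 95% interval from -0.19 to 0.08.

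The TIMPs differed from one another in how they varied between mice. Timp3, a matrix-bound inhibitor that also blocks the TNF-releasing protease Adam17, was dim, with processed signals of 35.0 to 94.9 on the Y RNA siRNA arrays and 30.1 to 110 on the control siRNA arrays. Its log2 levels were -3.91, -3.60, -3.25 and -2.62 in the Y RNA siRNA cultures of mice 1 to 4, against -4.13, -3.93, -3.36 and -2.42 in the control siRNA cultures. The order of the mice was the same in both groups, with mouse 4 highest and mouse 1 lowest. Mouse 4 averaged -2.52 and mouse 1 averaged -4.02, a 2.83-fold difference, and the adjusted p between mice was 0.0258. The range of mouse means was 1.5 on the log2 scale here, 0.60 with normexp background correction, where mouse 2 was the lowest, and 0.74 on the authors' deposited values. Between mice the call for Timp3 was lost without both arrays of mouse 1 (adjusted p = 0.235), mouse 3 (0.0762) or mouse 4 (0.0671). Leaving out 1 array ended it for either array of mouse 1 (0.123 and 0.131 without the Y RNA siRNA and the control siRNA array), either array of mouse 3 (0.105 and 0.104) and the control arrays of mice 2 (0.0550) and 4 (0.0633). Between siRNAs its log2 fold change was 0.11 ± 0.41 (SE, 95% interval -0.84 to 1.06).

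Timp1, a soluble inhibitor of most secreted MMPs and a common inflammatory response gene, was at -0.12, 0.18, 0.37 and 0.73 with the Y RNA siRNA, against -0.78, 0.01, 0.57 and 0.52 with the control siRNA. Mouse 1 was the lowest in both groups. Its log2 fold change between siRNAs was 0.21 ± 0.32 (SE, adjusted p = 1.000, 95% interval -0.52 to 0.94), positive in 3 of 4 mice. Mouse 1 alone differed by 0.66, and without its control array the value was -0.08. Mouse 4 averaged 0.63 and mouse 1 averaged -0.45, which is 2.11-fold, with an adjusted p between mice of 0.10 (0.0325 with normexp background correction).

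Timp2, which inhibits MMPs and also docks pro-Mmp2 to Mmp14, was read by a pair of probes that differed in how much they varied. The probe with the higher mean signal (chr11:118163146-118163205) read 7.58, 7.69, 7.54 and 7.74 with the Y RNA siRNA, against 7.64, 7.72, 7.59 and 7.79 with the control siRNA. Its log2 fold change was -0.05 ± 0.07 (SE), lower in 4 of 4 mice by 0.03 to 0.06, whereas over all genes 8.86% were lower in 4 of 4 mice and 10.4% were higher. The probe printed above read 5.27, 5.63, 5.72 and 5.72 with the Y RNA siRNA, against 5.15, 5.53, 5.60 and 5.71 with the control siRNA. Here the value was higher in 4 of 4 mice, by 0.01 to 0.12, and the log2 fold change was 0.09 ± 0.15 (SE). The 2 probes thus had opposite signs in every mouse, and neither passed between siRNAs. Between mice the brighter probe ranged over 0.20 (adjusted p over all probes = 0.174). The dimmer probe ranged over 0.50, with mouse 4 at 5.71 and mouse 1 at 5.21, and its adjusted p was 0.0505. Over the 9 genes, the blocked fit gave 95% intervals whose far ends lay between 1.10-fold (Timp2) and 1.5-fold (Timp1).

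**Figure D3:**
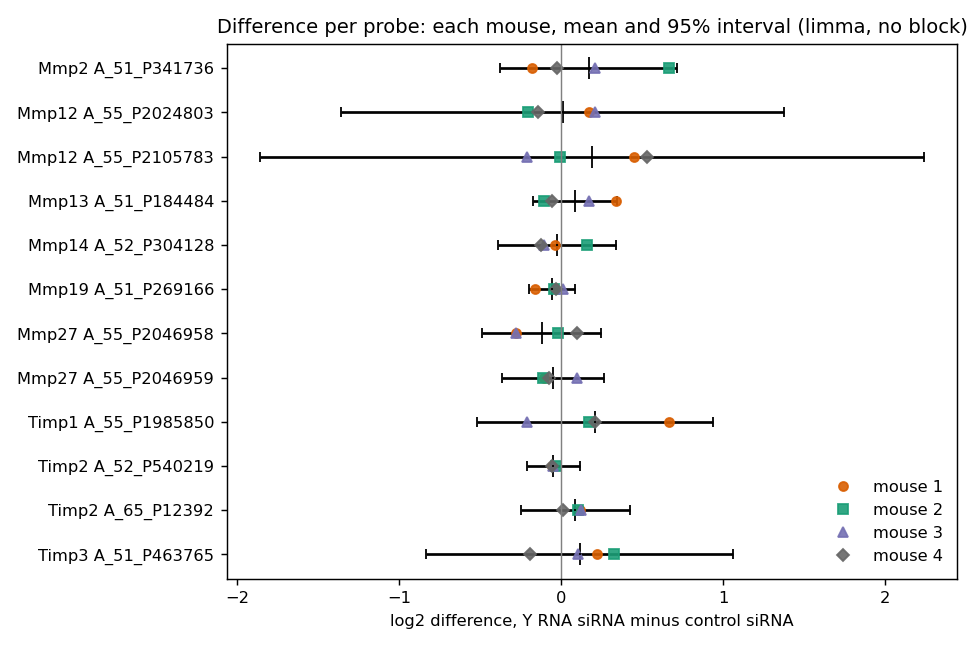
Log2 difference between siRNAs (Y RNA siRNA minus control siRNA, horizontal axis) for each of the 12 probes, with a symbol for each mouse, a tick for the mean and a bar for limma's 95% interval without a block. Every interval includes 0, and the widest belong to the 2 Mmp12 probes.

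By the rule for genes of like pattern, the 3 genes with a symbol that lay closest to Mmp12 over the 8 arrays were Mamdc2, Cmbl and Gpc1. Their root mean square differences from Mmp12, after each gene was centred on its own mean, were 0.13, 0.16 and 0.16 on the log2 scale, against an SD of 0.90 for Mmp12 itself. Mamdc2 encodes a secreted matrix-associated protein and Gpc1 the heparan sulfate proteoglycan glypican-1. Mamdc2 was at 0.09 and -0.15 on the Y RNA siRNA and control siRNA arrays of mouse 1, and at 1.99 and 1.97 on those of mouse 3. For Timp3 the closest were 4930512J16Rik (0.23), Fbln2 (0.25) and Ccdc80 (0.27), and for Timp1 they were Cited4 (0.09), Fbln2 (0.12) and Htr2a (0.12). Some of these genes were dim. On the control siRNA array of mouse 1 the lowest level well above background was -4.49. There Cited4 was at -4.99, Htr2a at -4.60 and 4930512J16Rik at -4.44. Fbln2, the matrix protein fibulin-2, was on both lists, and its levels were -2.20 and -2.55 in mouse 1 and -1.14 and -1.20 in mouse 4 (Y RNA siRNA array first). The 8 points come from 4 mice, with 2 arrays each.

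Most other members of the MMP family were too dim to compare. Of 17 further MMP genes on the array, 5 passed the filter (Mmp8, Mmp9, Mmp11, Mmp17 and Mmp24), and 9 were not well above background on any array. None of the 4 further inhibitors (Timp4, Reck, A2m and Pzp) passed it. Mmp9, the gelatinase B of macrophages and neutrophils, was not well above background on the Y RNA siRNA array of mouse 1. Its measured log2 levels were -4.74, -2.45, -2.12 and -2.51 in the Y RNA siRNA cultures of mice 1 to 4, against -4.01, -1.99, -1.80 and -2.03 in the control siRNA cultures. As with Mmp12, mouse 1 was the lowest and mouse 3 the highest in both groups (adjusted p between mice = 0.00499). That p rests in part on the value below detection in mouse 1 and is not used as support. Mmp8, the neutrophil collagenase, ran the other way, with 1.24 and 1.02 in mouse 1 and 0.72 and 0.35 in mouse 3 (Y RNA siRNA and control siRNA array, adjusted p between mice = 0.0478).

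Across the 5 lists of pathway genes (70 genes, 43 tested), 0 passed between siRNAs by limma, with 22 log2 fold changes above and 21 below 0. At an unadjusted p under 0.05 there were 2 of the 43, Col18a1 and Mmp24, against 3.4% of all genes. Mmp24 passed the filter only through its control siRNA arrays, so its p-value is not used as support for a difference. Between mice 6 of the 43 passed (14.0%), against 4.72% of all genes. The lists were chosen with earlier results of these data known, so this share is not read as a result about the pathway. Beside Mmp8 and Mmp9 the genes that passed were Adamts1, Col1a1, Nid1 and Thbs1. Adamts1 and Nid1 were not well above background on either array of mouse 1 and passed the filter only through other mice. Nid1 was also not well above background on the control siRNA array of mouse 2. Their p-values rest on values below detection there and are not used as support, although the 14.0% includes both genes and also Mmp9. Adamts1, a protease that cuts versican and aggrecan, averaged -0.54 in mouse 3, and the difference from mouse 1 is a bound, at least 13.9-fold. Thbs1, the matrix glycoprotein thrombospondin-1, was highest in mouse 1, with 1.43 and 0.92 against -0.70 and -0.66 in mouse 3. Genes for MMP activation, docking and clearance (11 of 17 tested), such as the proprotein convertase Furin, the MMP inducer Bsg and the clearance receptor Lrp1, had 4 positive and 7 negative log2 fold changes between siRNAs and 0 calls between mice. Of the ADAM and ADAMTS proteases 10 of 13 were tested, with 4 positive and 6 negative values, and Adam17, the target of Timp3, had a log2 fold change of -0.05 ± 0.14 (SE). Of the matrix and other substrate genes 17 of 19 were tested, with 12 positive and 5 negative values between siRNAs and 3 calls between mice.

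Some markers of other cell types differed between mice in the same direction as some members. The summed signal of 6 osteoclast markers, each in units of the array's 75th percentile, was 60.2 and 73.8 in mouse 3 against 11.6 and 14.1 in mouse 1 (Y RNA siRNA and control siRNA array). Of the 6, 5 were tested, and the lysosomal protease Ctsk and the phosphatase Acp5 passed between mice (adjusted p = 0.000441 and 0.00674), both lowest in mouse 1 and highest in mouse 3 as Mmp12 was. These 2 genes made up most of the sum, and both are also made by macrophages. The other 3 tested markers did not pass and had their lowest mean in mouse 3. The fusion gene Ocstamp averaged -3.77 in mouse 3 and -3.41 in mouse 1 (adjusted p = 0.269), the fusion gene Dcstamp -3.37 and -2.92 (0.117), and the receptor gene Oscar -2.49 and -2.37 (0.853). Calcr, the calcitonin receptor, was not well above background on any array. The summed signal of 10 fibroblast and stromal markers was 5.69 and 5.82 in mouse 4, 4.52 and 6.02 in mouse 3, 3.87 and 4.20 in mouse 2 and 3.28 and 2.11 in mouse 1, and 8 of the 10 were tested. Sparc and Col1a2 made up most of this sum, and neither passed between mice (adjusted p = 0.350 and 0.0609). Only Col1a1 passed (adjusted p = 0.0471), highest in mouse 4 and lowest in mouse 1 as Timp3 was. Col1a2, Dcn, Postn and Sparc had their highest and lowest means in the same mice. Thy1 and Col3a1 had their highest mean in mouse 3 instead, and Pdgfrb had its lowest measured mean there. Pdgfra and Lum were not well above background on any array. Neutrophil markers summed to 6.05 and 6.30 in mouse 3 and to 4.53 and 4.14 in mouse 1. Of the 8, 5 were tested, and S100a8 and Mpo passed between mice (adjusted p = 0.0244 and 0.0138). Mpo was well above background on 3 arrays of each group and measured -4.74 and -4.47 in mouse 1. Its p-value rests on values near the detection limit there and is not used as support. Elane made up most of the sum and did not pass (adjusted p = 0.430). Camp and S100a9 did not pass either (0.416 and 0.123). Ly6g was not well above background on any array. The summed macrophage signal ran the other way, with 1552 and 1560 in mouse 3 against 1813 and 1808 in mouse 1. Of its 10 markers 2 passed between mice, Lyz2 and Cd14 (adjusted p = 0.0483 and 0.0464). Cd68 did not (0.764), and Lamp2 averaged 5.73 in mouse 3 and 5.69 in mouse 1. The part of these cells in the differences of Mmp12, Timp1 and Timp3 was not tested.

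**Figure D4:**
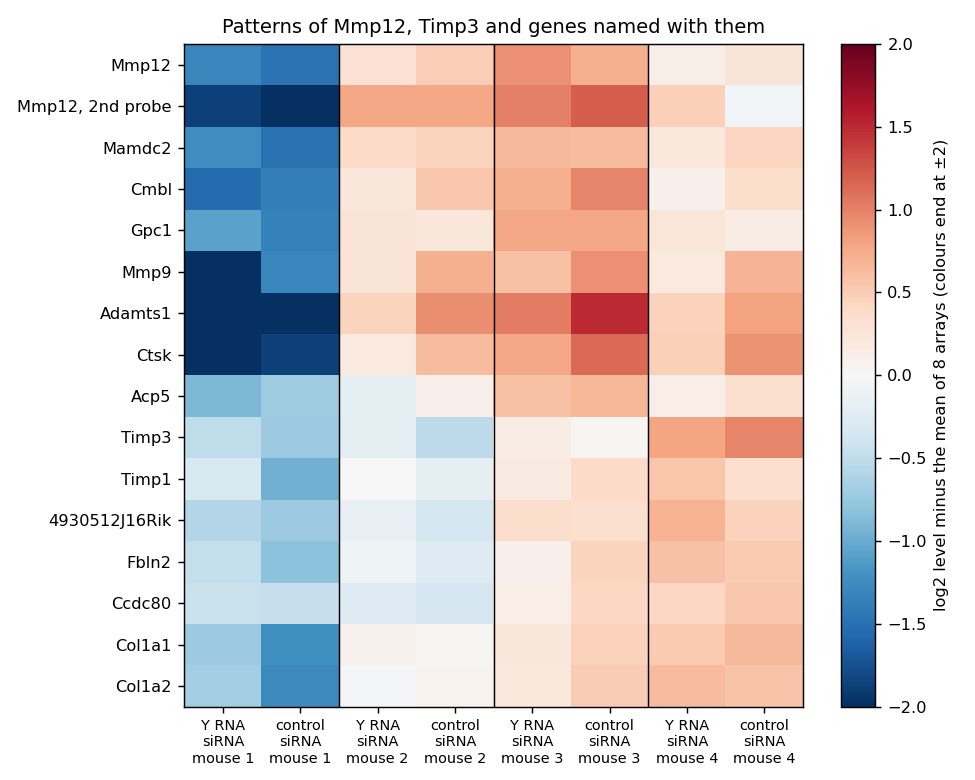
Log2 level minus the mean of the 8 arrays (colour, ending at ±2) for Mmp12 and Timp3, their nearest genes by pattern, and pathway and marker genes named in the text (rows), on the arrays of each mouse (columns, Y RNA siRNA left of control siRNA). Mmp12, Mmp9, Adamts1 and Ctsk are lowest in mouse 1 on both arrays, and Timp3, Col1a1 and Col1a2 are highest in mouse 4 and lowest in mouse 1 on both siRNAs.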

How the data were processed

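Cy3-labelled RNA of 8 cultures (0.2 µg each) was measured on 1-colour Agilent arrays of design 028005, per the labels' protocols and the file headers. The intensity values deposited by the authors were made with Feature Extraction 10.7.3.1, with background subtraction and spatial detrending and no scaling between arrays, per the file headers. A table of processed values from the authors is on the log2 scale, but its method, scaling and centring are not stated (column medians 6.26 to 6.27). It served as an alternative.

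Log2 processed signals were set relative to the 75th percentile of each array (9.04 to 9.34, lowest on both arrays of mouse 1). Control spots and outlier spots were left out. A probe was kept if 4 or more of the 8 arrays had it well above background (26774 of 55681), and the probe with the highest mean represented a gene. Accessions of 26762 probes matched RefSeq names. limma 3.58.1 in R 4.3.3 compared the siRNAs without a block and, in an F-test with the siRNA as a term, the 4 mice. P-values were two-sided and adjusted by Benjamini-Hochberg over all genes. The fits were tested on simulated data.

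Arrays were paired by replicate number, since the series design puts both conditions on 4 mice; no label names a sample's mouse. Deviations from the group means correlated at 0.618, 0.155, 0.580 and 0.285 between the arrays of mice 1 to 4. The control array of mouse 2 correlated best with the Y RNA siRNA array of mouse 3, and each other array with its own number. The members and lists were chosen with earlier results of these data known. All members are named. The 3 members with the largest SD had their 3 nearest genes named. The number of arrays limits the precision. Without a block, p-values between siRNAs measure the spread between the cultures of a group, with the 2 arrays of a mouse taken as independent. The fixed-block fit and the F-test between mice use the spread left after siRNA and mouse are fitted. Each mouse had 1 culture per siRNA.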

Additional observations from a re-analysis of the deposited data

How the results depend on the processing

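Between siRNAs, 0 members passed in every alternative run, with 9 tested in each except the filter requiring all 8 arrays well above background, which left out Mmp2. The replicate block changed no call of a member: a fixed block gave 0 genes in limma (1783 at an unadjusted p under 0.05) and a random block gave 11. Array weights gave 1 gene. Signs of uncalled log2 fold changes turned in places. With array weights Mmp2 was at 0.459 and Timp3 at 0.326, above Timp1 at 0.201, while Mmp12 was at -0.18, Mmp13 at -0.0175 and Mmp14 at 0.0937. Median centring put Mmp14 at 0.0020, and the mean over both probes put Timp2 at 0.0197. The cause was not tested. Leaving out arrays or mice gave ranges of -0.0334 to 0.32 for Mmp2, -0.48 to 0.44 for Mmp12, -0.0015 to 0.18 for Mmp13, -0.11 to 0.0837 for Mmp14, -0.12 to 0.0412 for Mmp27, -0.0798 to 0.37 for Timp1 and -0.13 to 0.46 for Timp3. Between mice, the count of genes was 3310 with normexp, 1858 on the authors' deposited table, 1867 with array weights and 173 with no filter on dim probes. Members passing numbered 6 with normexp, 4 on the authors' table, 3 with array weights and 0 with no filter. With fewer arrays or mice, 2 to 1223 genes and 0 to 3 members passed. Mmp12 and Timp3 each kept their call between mice in 7 of 8 processing alternatives. With arrays or mice left out, Mmp12 kept it in 7 of 12 and Timp3 in 3 of 12. The exception in processing was no filter, with 35044 genes tested and adjusted p of 0.0539 for Mmp12 and 0.104 for Timp3. The unadjusted p of the same F-test rose as well, from 6.95e-05 to 0.000312 for Mmp12 and from 0.000519 to 0.0017 for Timp3. Signals near background limit Mmp2, Timp3 and the second Mmp12 probe.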

Other observations

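Mmp24, a membrane-type MMP known mainly from the nervous system, passed the filter on dim probes only through its control siRNA arrays. Its difference is therefore given as a description, and its p-value is not used as support. Its measured log2 levels were -4.60, -5.20, -4.44 and -4.64 in the Y RNA siRNA cultures of mice 1 to 4, against -3.84, -4.33, -3.78 and -4.06 in the control siRNA cultures. The probe was not well above background on any Y RNA siRNA array and was so on all 4 control siRNA arrays. The difference of the group means is therefore a bound, at least 1.42-fold on these arrays, and not a bound for each mouse. Mmp24 did not pass between siRNAs by limma (adjusted p = 0.971), and no difference between siRNAs is concluded. Its second probe was well above background on 1 Y RNA siRNA array and 3 control siRNA arrays. Col18a1, the collagen that yields endostatin, was the other pathway gene with an unadjusted p under 0.05 (0.0316, log2 fold change -0.21 ± 0.08, SE, adjusted p = 1.000).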
